A study of Mus musculus with 8 samples.

Results

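H3K27ac regions that differed between Nrip1-/- and WT control primary myotubes were examined at 43 genes of cytokine, STAT and NF-kB signalling, out of 21938 protein-coding genes of the GENCODE annotation of mouse build mm10. The genes were a fixed list, chosen with earlier results of these data known. A region was taken when one of them had the nearest protein-coding transcription start to its centre. It was also taken when its centre lay within 100 kb of one of their starts. The first rule took 35 of the 11180 differential regions, the second took 68, and together they took 71. The direction of each region, increased or decreased in Nrip1-/- myotubes, is the list in which it was deposited.

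H3K27ac (acetylated lysine 27 of histone H3) marks promoters and enhancers in use. It was profiled by CUT&RUN, in which an antibody guides a nuclease to marked chromatin and the released DNA is sequenced. The 8 libraries comprised 2 replicates each of H3K27ac and of the negative control IgG, from myotubes labelled Nrip1KO (the gene encodes the nuclear receptor coregulator RIP140) and Ctrl. The myotubes were grown from satellite cells of the gastrocnemius muscle and differentiated for 4 days. The study describes the cultures as coming from mice lacking Nrip1 in striated muscle, made by crossing floxed Nrip1 mice with a Cre line driven by the MCK promoter, with Cre-negative littermates as controls. The number of animals behind each culture is not given in the sources used here. Dexamethasone, a glucocorticoid that dampens cytokine signalling, was in the growth medium of both genotypes. The study lists none in the medium used for the 4 days of differentiation. The deposited lists hold positions only, so no value per library, no size of change, no IgG background and no error between replicates can be given, and the depth is unknown. Each count below describes the lists, and nothing in it measures how far the replicates varied. No test was made. Regions without a difference of 2-fold or more are not in these lists, so the absence of a region says nothing about whether a gene carried the mark. For the same reason the myotube label could not be checked against levels of marker genes.

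In this pathway, cytokines bind paired receptors whose associated Janus kinases phosphorylate STAT factors, which then enter the nucleus and activate transcription. Receptors of the IL-6 family share the signalling subunit gp130, encoded by Il6st. Tumour necrosis factor, interleukin-1 and Toll-like receptors act instead through the degradation of IkB proteins, which frees NF-kB dimers such as p65/p50. In skeletal muscle, IL-6 and LIF are released by working or injured fibres, STAT3 acts in satellite cells and in atrophy, and IL-15 is a cytokine highly expressed in muscle.

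Stretches of DNA from these regions show the sequences on which the mark differed. They were read from GRCm38.p6, the assembly behind mm10, and are written on the plus strand, with the match to a STAT, IRF or NF-kB motif in capitals. A rule took, for each gene with the most regions first, the match closest to the centre of a region, for up to 8 genes. In the increased regions these were an IRF match at a Lif start (chr11:4267366-4267515, match at 4267436 to 4267445), an NF-kB match far upstream of Tnfaip3 (chr10:19164325-19164474, match at 19164395 to 19164404), a STAT match in an intron of Nfkb1 (chr3:135641795-135641943, match at 135641865 to 135641873) and an NF-kB match in the first part of Stat6 (chr10:127643638-127643787, match at 127643708 to 127643717):
Lif: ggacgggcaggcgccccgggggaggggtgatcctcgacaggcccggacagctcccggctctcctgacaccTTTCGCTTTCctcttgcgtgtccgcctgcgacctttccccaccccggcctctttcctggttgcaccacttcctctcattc
Tnfaip3: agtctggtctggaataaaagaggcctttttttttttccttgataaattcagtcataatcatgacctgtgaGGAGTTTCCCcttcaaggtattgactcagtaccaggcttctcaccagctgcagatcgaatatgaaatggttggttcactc
Nfkb1: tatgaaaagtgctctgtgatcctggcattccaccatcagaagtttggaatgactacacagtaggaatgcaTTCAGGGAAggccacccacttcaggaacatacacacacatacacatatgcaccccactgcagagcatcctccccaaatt
Stat6: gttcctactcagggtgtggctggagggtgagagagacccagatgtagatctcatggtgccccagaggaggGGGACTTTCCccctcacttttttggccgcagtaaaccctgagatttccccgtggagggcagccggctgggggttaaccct

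In the decreased regions they were a STAT match downstream of Jak1 (chr4:101118621-101118769, match at 101118691 to 101118699), a STAT match in an intron of Lifr (chr15:7103177-7103325, match at 7103247 to 7103255), an NF-kB match upstream of Il6st (chr13:112426568-112426717, match at 112426638 to 112426647) and a STAT match near a start of Stat5a (chr11:100860765-100860913, match at 100860835 to 100860843):
Jak1: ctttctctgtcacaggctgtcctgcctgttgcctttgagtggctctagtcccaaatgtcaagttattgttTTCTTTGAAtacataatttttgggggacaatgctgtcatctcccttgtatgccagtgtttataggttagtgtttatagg
Lifr: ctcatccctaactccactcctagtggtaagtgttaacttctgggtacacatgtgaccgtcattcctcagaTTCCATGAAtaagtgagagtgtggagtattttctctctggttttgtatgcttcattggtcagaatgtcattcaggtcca
Il6st: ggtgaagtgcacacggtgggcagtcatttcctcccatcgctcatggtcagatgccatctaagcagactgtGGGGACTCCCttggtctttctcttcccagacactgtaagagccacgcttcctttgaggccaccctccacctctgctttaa
Stat5a: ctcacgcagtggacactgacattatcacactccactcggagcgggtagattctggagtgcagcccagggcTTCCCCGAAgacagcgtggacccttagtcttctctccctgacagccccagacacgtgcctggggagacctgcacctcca

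Another 3 stretches were chosen after the matches had been seen, for Stat3 because its increased region holds 2 overlapping IRF matches (chr11:100931716-100931851, matches at 100931776 to 100931791), for Ifnar2 because its decreased region near a start holds a STAT match (chr16:91373100-91373228, match at 91373160 to 91373168), and for Rela because its decreased region holds 4 AP-1 matches, the first and last starting 232 bp apart, of which the last 2 are shown (chr19:5638136-5638278, AP-1 matches in capitals, partly in exon sequence of some transcripts):
Stat3: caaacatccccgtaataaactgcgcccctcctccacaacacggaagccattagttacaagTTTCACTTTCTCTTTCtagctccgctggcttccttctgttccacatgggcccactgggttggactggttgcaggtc
Ifnar2: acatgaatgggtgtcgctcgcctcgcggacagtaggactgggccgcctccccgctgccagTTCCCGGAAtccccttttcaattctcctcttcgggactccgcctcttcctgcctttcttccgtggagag
Rela: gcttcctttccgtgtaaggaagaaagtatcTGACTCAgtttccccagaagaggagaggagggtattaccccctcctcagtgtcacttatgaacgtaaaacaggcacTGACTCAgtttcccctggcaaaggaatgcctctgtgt
None of the stretches other than that of Rela overlaps an annotated exon. A match is a run of letters and is not evidence that a factor was bound.

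Of the 43 genes, 16 were the nearest to at least 1 differential region (37.2%, 95% Wilson interval 24.4 to 52.1, counting error only), compared with 25.4% of all protein-coding genes. Decreased regions were nearest to 14 of the genes (32.6%, interval 20.5 to 47.5, against 17.8% of all), and increased regions to 6 (14%, interval 6.6 to 27.3, against 10.6% of all). Both directions were found at 4 genes, Lif, Stat6, Nfkb1 and Tnfaip3 (9.30%, against 3.07% of all). The 2 genes with increased regions alone were Stat3 and Il15, and 10 genes had decreased regions alone, with no matching share of all genes counted. The 35 regions comprised 9 increased ones, which covered 11.5 kb, and 26 decreased ones, which covered 29.9 kb. Shares of genes also move with how far apart genes lie. The stretch of genome closest to each gene's starts had a median of 75.5 kb for these genes and 45 kb for all protein-coding genes. Per Mb of such sequence there were 1.53 increased and 4.43 decreased regions at these genes, compared with 1.44 and 2.66 over the genome. Had each gene's sequence carried the density of its own chromosome, 7.3 increased and 20.7 decreased regions would have been counted. Both counts, 9 and 26, lay above these values by a like proportion, with no test of either. The genes were chosen with earlier results of these data known, and the part of that choice in these shares was not tested.

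**Figure D1:**
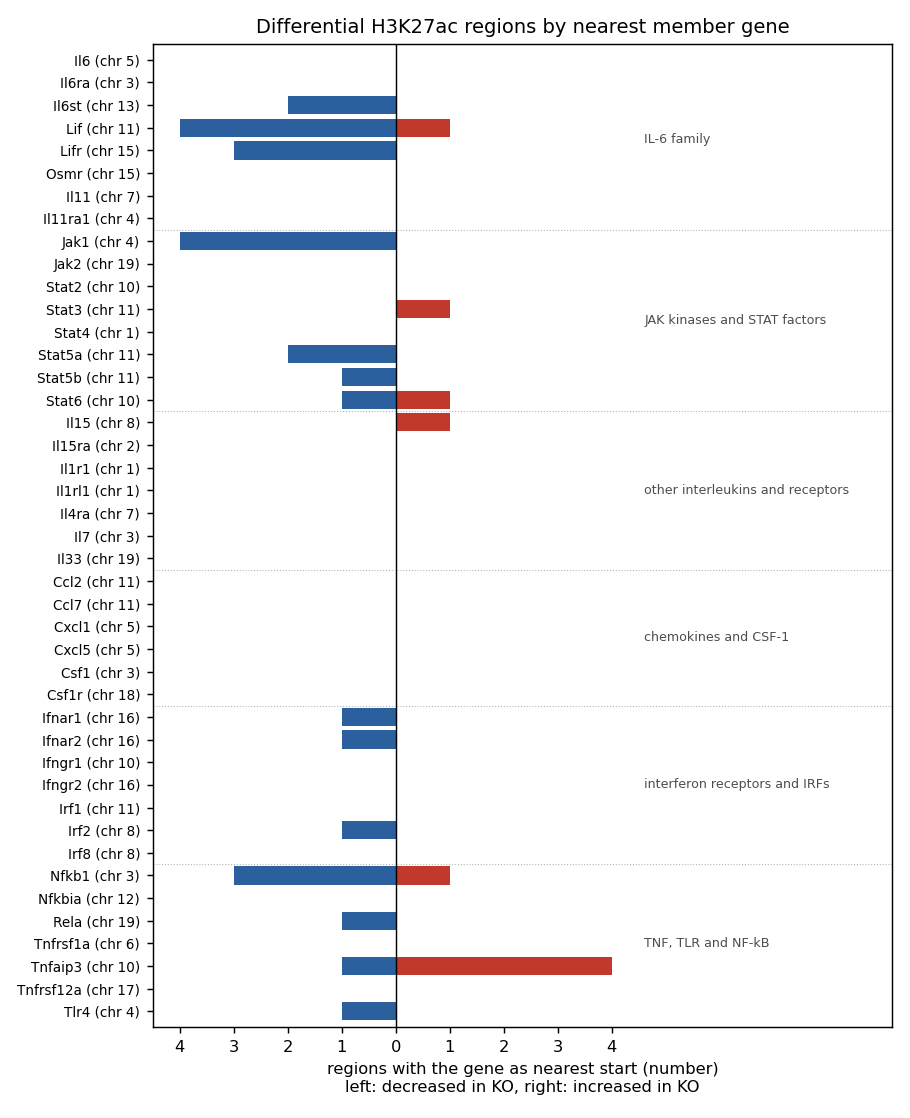
Number of differential H3K27ac regions that had each of the 43 genes as nearest protein-coding start, with decreased regions drawn to the left (blue) and increased regions to the right (red). The genes are grouped by role, and chromosomes are given in brackets. Lif and Jak1 have the longest bars to the left, with 4 decreased regions each, and Tnfaip3 the longest to the right, with 4 increased regions, while the 6 chemokine and CSF-1 genes have none. Of all protein-coding genes, 25.4% were nearest to a region, and differences between roles were not tested.

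Genes of the IL-6 family carried 9 decreased regions and 1 increased region, spread over 3 of the 8 genes. Here and for each role below, the share of all protein-coding genes nearest to a region was 25.4%. Each role holds 8 genes or fewer, and differences between roles were not tested. Lif encodes leukaemia inhibitory factor, a cytokine that myotubes release and that acts on myoblasts. It was nearest to 5 regions, a number that 1.98% of protein-coding genes reached. Its increased region (chr11:4266762-4267666, 905 bp, GC content 59.8%) was centred 119 bp from an annotated start, which lies inside the gene, 9657 bp from its 5' end. Between it and the 5' end, also inside Lif, were decreased regions of 501 bp (chr11:4260427-4260927, centred 3120 bp from the 5' start) and 898 bp (chr11:4263305-4264202). Beyond the gene, decreased regions of 3381 bp (chr11:4307250-4310630, joined from 2 called peaks) and 735 bp (chr11:4323386-4324120) lay 41845 and 56658 bp from a start. The Lif locus thus held an increased region within 1 kb of a start with decreased regions before and after it, and no value per replicate can be set beside this order.

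Lifr, the LIF receptor that pairs with gp130, was nearest to 3 decreased regions and no increased one, and 5.62% of protein-coding genes had 3 or more regions. The widest of the 35 regions was among them (chr15:7011465-7016873, 5409 bp), intergenic and 76445 bp upstream of the nearest Lifr start. It held 4 STAT matches. The others were intronic, at chr15:7103164-7103664 (501 bp) and chr15:7151871-7152754 (884 bp, 2041 bp from an internal start). Il6st, which encodes gp130, had 2 decreased regions upstream of the gene, at 37396 bp (chr13:112426289-112427060, 772 bp) and 28541 bp (chr13:112435111-112435947, 837 bp) from its start. The former was centred 334 bp from the start of the long non-coding RNA gene Gm48876. Between them, these regions held 3 STAT matches in addition to the NF-kB match shown above. Il6, Il6ra, Osmr, Il11 and Il11ra1 were nearest to no region. Within 100 kb of a start, Il6ra had 1 decreased region and Il11ra1 had 3, while Il6, Osmr and Il11 each had 1 increased region and no decreased one.

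Among kinases and STAT factors there were 8 decreased and 2 increased regions at 5 of 8 genes. Jak1, the Janus kinase used by gp130 and interferon receptors, was nearest to 4 decreased regions, a number that 3.16% of protein-coding genes reached. Of these, 2 were intronic in Jak1 (chr4:101234587-101236118, 1532 bp, and chr4:101244586-101245372, 787 bp). The other 2 lay past its 3' end in introns of Raver2, 36352 bp (chr4:101118386-101119148, 763 bp) and 10792 bp (chr4:101143452-101145203, 1752 bp) from a Jak1 start. Chromosome 4 as a whole was mostly decreased, with 7.53% of its regions increased.

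Stat3, Stat5a and Stat5b lie beside each other on chromosome 11 and did not share a direction. The region of Stat3, which transmits IL-6 and LIF signals, was increased (chr11:100930910-100932440, 1531 bp), intronic and 7705 bp downstream of a start. Stat5a and Stat5b transmit growth hormone and cytokine signals. Stat5a had decreased regions 400 bp (chr11:100860317-100861453, 1137 bp, GC content 60.7%) and 2046 bp (chr11:100862042-100863021, 980 bp) from an annotated start. The decreased region of Stat5b (chr11:100816791-100817422, 632 bp) was intronic. All of these fell within 100 kb of starts of all 3 genes, so their assignment rests on the nearest start alone. On chromosome 11, 16.2% of regions were increased. Stat6, the factor of IL-4 and IL-13 signalling, had an increased region centred 584 bp from a start (chr10:127642265-127644907, 2643 bp, joined from 2 peaks, the widest increased region of the set). A decreased region of 501 bp lay at its other end, where it overlaps Nab2 (chr10:127660704-127661204, 1554 bp from an internal Stat6 start). The larger region at Stat6 held 3 NF-kB matches. Jak2, Stat2 and Stat4 had no nearest region, the closest regions to Stat2 lying 126669 bp (increased) and 119439 bp (decreased) from its starts.

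Interferon receptors and IRF factors had 3 decreased regions and no increased one. Ifnar2, a subunit of the type I interferon receptor, had a decreased region of 2019 bp centred 270 bp from a start (chr16:91372160-91374178, joined from 2 peaks). Ifnar1, the other subunit, had one of 501 bp beyond its 3' end (chr16:91514667-91515167), 9613 bp from an annotated start and 284 bp from that of the pseudogene Gm7856. Irf2, a repressor of interferon targets, had an intronic region of 660 bp (chr8:46764986-46765645), 25049 bp from a start. Chromosome 16, which carries the receptor genes Ifnar1, Ifnar2 and Ifngr2, had 7.80% increased regions. Ifngr1, Ifngr2, Irf1 and Irf8 were nearest to none.

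In the TNF, TLR and NF-kB group there were 5 increased and 6 decreased regions at 4 of 7 genes. Nfkb1, which encodes the p105 precursor of p50, was nearest to 4 regions. One was increased and intronic (chr3:135641084-135642615, 1532 bp, joined from 2 peaks, 19707 bp from a start). Toward its 3' end, decreased regions of 501 bp (chr3:135629188-135629688) and 891 bp (chr3:135586590-135587480) were intronic, and another of 769 bp (chr3:135582383-135583151) lay just past the gene. Rela, which encodes p65, had a decreased region of 904 bp centred 374 bp from a start (chr19:5637882-5638785, GC content 59.8%). Tlr4, the receptor for lipopolysaccharide, had an intronic decreased region of 774 bp (chr4:66847525-66848298), 19709 bp from a start. Nfkbia, Tnfrsf1a and Tnfrsf12a had none.

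Tnfaip3, which encodes the NF-kB inhibitor A20, had most of its regions far from the gene. Its 4 increased regions were all upstream, at 83542 bp (chr10:19098873-19099525, 653 bp), 125063 bp (chr10:19140228-19141213, 986 bp), 130978 bp (chr10:19146020-19147251, 1232 bp) and 148969 bp (chr10:19164213-19165040, 828 bp) from its nearest start. They lay in the 341 kb between the starts of Tnfaip3 and Olig3. Starts of non-coding genes were closer to them. The first was centred 2346 bp from that of the pseudogene Tpi-rs5. The other 3 were centred 1031, 4849 and 2612 bp from a start of the long non-coding RNA gene Gm20139. On the downstream side, a decreased region of 870 bp (chr10:18973716-18974585) lay 34695 bp from a start. Of all 35 regions, the 3 farthest upstream of Tnfaip3 were the only ones over 100 kb from the gene to which they were assigned. On chromosome 10, 69.1% of regions were increased. Without Tnfaip3, 5 increased and 25 decreased regions remained (16.7% increased).

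The remaining interleukins, chemokines and receptors had a single nearest region. Il15 had an increased intronic region of 1147 bp (chr8:82392834-82393980, GC content 37.5%), 5220 bp from a start, with the next coding gene, Zfp330, 374130 bp away and no decreased region within 100 kb. On chromosome 8, 24.7% of regions were increased. Il15ra, Il1r1, Il1rl1, Il4ra, Il7 and Il33 had no nearest region, nor did Ccl2, Ccl7, Cxcl1, Cxcl5, Csf1 and Csf1r, the genes for chemokines that attract monocytes and neutrophils and for the macrophage growth factor and its receptor.

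Counting every region within 100 kb of a start reached more of the genes. At least 1 region lay in this window for 34 of 43 genes (79.1%, interval 64.8 to 88.6), compared with 57.9% of all protein-coding genes. A decreased region was present for 26 (60.5%, interval 45.6 to 73.6, against 42.7% of all) and an increased one for 15 (34.9%, interval 22.4 to 49.8, against 24.1% of all). At the share of each gene's own chromosome, 21.4 and 10.3 genes would have been counted. The windows held 16 increased and 52 decreased regions, of which 10 were shared by neighbouring genes of the list. At 19 genes the window held decreased regions alone, at 8 increased ones alone and at 7 both. The matching shares of all protein-coding genes were not counted, so these numbers only describe the list. The 9 genes with no region by either rule were Jak2, Stat2, Il15ra, Ccl2, Ccl7, Csf1r, Ifngr1, Nfkbia and Tnfrsf12a. Their closest region lay between 119439 bp (Stat2) and 648340 bp (Nfkbia) from a start. The region just inside the limit lay 97679 bp from a Stat5a start, and the one just outside lay 100460 bp from an Nfkb1 start.

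Of the 68 window regions, 36 were nearer to a gene outside the list. For 18 genes, no region in the window had that gene as the nearest. Of the 10 increased regions among the 36, 7 were centred within 1 kb of that other gene's start, and of the 26 decreased ones, 6 were. The share of all regions this close to a coding start was not counted. Within 1 kb of any annotated start, coding or not, lay 15.2% of all increased and 11.2% of all decreased regions. A difference between directions was not tested. The increased region 60616 bp from an Il6 start was centred 320 bp from the start of Tyms, and that 62776 bp upstream of Irf1 was 57 bp from the start of Rad50. Ube2s (293 bp from its start) had the increased region 28754 bp from Il11, and Uhrf2 (668 bp) that 78029 bp from Il33. Il4ra, the IL-4 receptor, had 3 increased regions in its window, of which 1 was centred 15 bp from the start of its neighbour Il21r and another 65 bp from that of Nsmce1. It lies on chromosome 7, where 97.7% of regions were increased. Around Lif, 5 decreased regions upstream of the gene belonged to Sf3a1, Tbc1d10a and Castor1, so that its window held 9 decreased regions and 1 increased region in all. Rela had 4 further decreased regions in its window, nearest to Rnaseh2c, Sipa1 and Kcnk7. Il11ra1, the IL-11 receptor, had 3 decreased regions, 1 of them 6 bp from the start of Galt and 3948 bp from an Il11ra1 start. All 4 regions around Ifngr2 were decreased, and 3 of them were shared with the window of Ifnar1. Cxcl1 and Cxcl5 shared 1 decreased region, whose nearest start was that of Cxcl15. Single decreased regions lay 73513 bp from Il6ra, 86385 bp from Il7, 79372 bp from Irf8 and 74566 bp from Tnfrsf1a, and single increased ones 81602 bp from Osmr and 73636 bp from Csf1. Il1r1 and Il1rl1, receptors for IL-1 and IL-33, shared a decreased region at 92021 and 70892 bp.

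**Figure D2:**
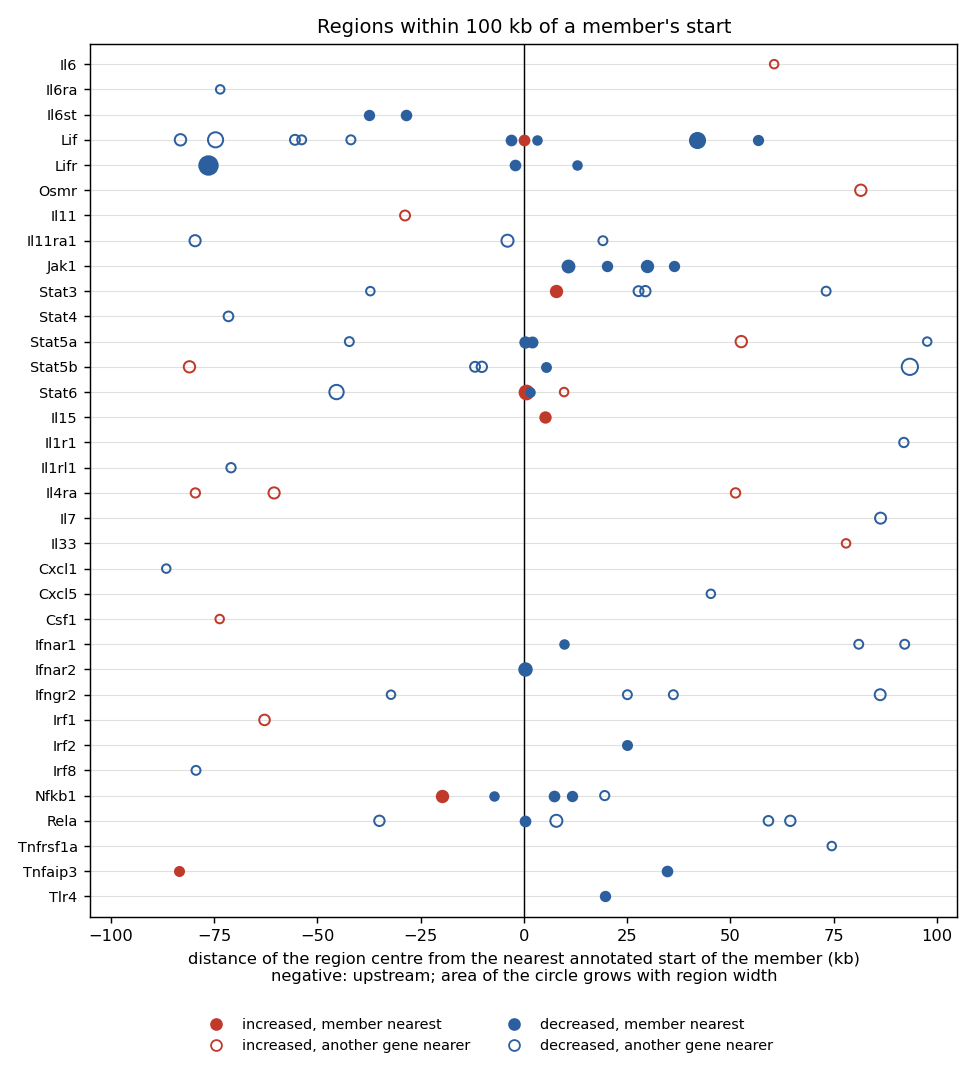
Position of each region centre relative to the nearest annotated start of the gene, in kb, for the 34 genes with a region within 100 kb. Red circles are increased and blue circles decreased in Nrip1-/- myotubes, filled where the gene had the nearest start and open where another gene was nearer, and the circle's area grows with region width. Filled circles at 0 kb mark Lif and Stat6 (increased) and Stat5a, Ifnar2 and Rela (decreased).

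Regions within 1 kb of a start of the genes themselves were few. Increased regions were found there at 2 genes, Lif and Stat6 (4.65%, against 2.32% of all protein-coding genes), and decreased ones at 3, Stat5a, Ifnar2 and Rela (6.98%, against 2.78% of all). A further 4 decreased regions were promoter-proximal only to another annotated gene, such as Gm48876. At 5 genes there were 3 or more nearest regions (11.6%, against 5.62% of all), namely Lif, Lifr, Jak1, Nfkb1 and Tnfaip3. The sequence closest to their starts spanned 100.2, 205.9, 230.0, 179.6 and 259.2 kb, against a median of 45 kb for all protein-coding genes. The shares of genes that reached as many regions do not allow for these lengths. Of the 35 regions, 21 were centred inside the gene to which they were assigned, 16 of them decreased, at 11 genes. Of the 35 as a whole, 74.3% were decreased, and the share of all regions centred inside their assigned gene was not counted.

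Since directions differed between chromosomes, the genes were set against the other regions of their own chromosomes. Of the regions nearest to the genes, 25.7% were increased (9 of 35, interval 14.2 to 42.1), compared with 35% of all 11179 regions on the assembled chromosomes. Among those of the 35 regions that were at least 1 kb wide, the share was 45.5% (5 increased and 6 decreased). The share over all regions of that width was not counted, so the 35% is not a matching background for it. At the shares of the chromosomes that carry the 35 regions, 31.5% (11 regions) would have been increased. Chromosomes 4, 7, 10 and 16, whose shares of increased regions lay far from that of the lists (7.53%, 97.7%, 69.1% and 7.80%), carried 12 of the genes and 14 of the regions. Without them, 4 of 21 regions were increased (19%, interval 7.7 to 40.0), compared with 30.2% of all regions on the same chromosomes and with 26.9% at the shares of the chromosomes that carry them. In the 100-kb windows, 23.5% of 68 regions were increased (interval 15 to 34.9), with 31.9% at the chromosome shares. Each interval covers counting error alone and takes regions as independent, which neighbouring regions are not. The shares given by the chromosomes lay inside these 3 intervals.

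**Figure D3:**
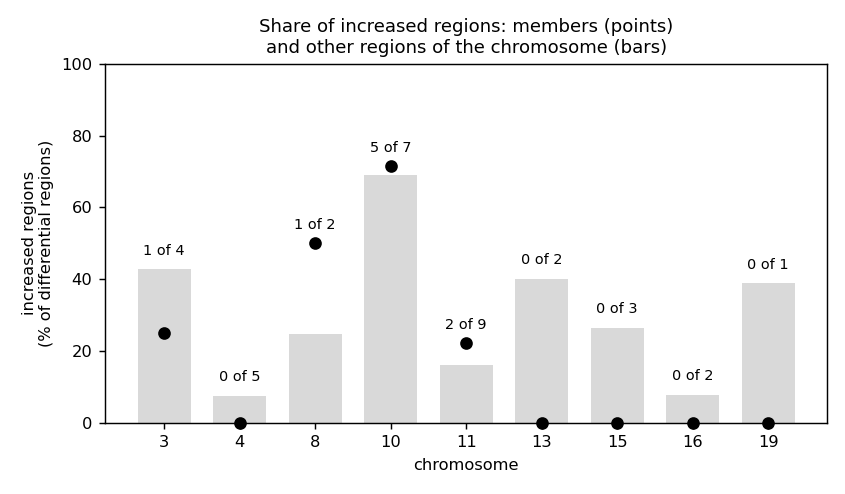
Share of increased regions, in percent of differential regions, for the 9 chromosomes with a region nearest to one of the genes. Points are the regions of the genes, with their number, and bars are the remaining regions of the chromosome. The points stand at 0 on chromosomes 4, 13, 15, 16 and 19, where the bars are at 7.57%, 40.1%, 26.5%, 7.82% and 38.9%, and 5 of 7 regions were increased on chromosome 10, where the bar is at 69.0%.

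Widths and base composition were set against all regions of the same direction, without a test. The 9 increased regions had a median width of 1147 bp (range 653 to 2643), compared with 777 bp for all increased regions, whose quartiles were 501 and 1202 bp. None had the smallest width of 501 bp, which 28.7% of all increased regions had. The 26 decreased regions had a median of 812 bp (range 501 to 5409), compared with 863.5 bp for all decreased regions (quartiles 632 and 1390 bp), and 5 of them had the smallest width. Median GC content was 45.2% for increased regions (range 37.5 to 59.8) and 48.0% for decreased regions (range 40.4 to 60.7), compared with 43.1% and 47.9% over the lists. The regions with the highest GC content were those near starts of Stat5a, Lif and Rela. Promoter-proximal regions, within 1 kb of any annotated start, made up 2 of the 9 increased (22.2%) and 7 of the 26 decreased regions (26.9%), compared with 15.2% and 11.2% of all. Introns held 66.7% and 53.8% of them, compared with 46.2% and 51.7%. The median distance from the nearest coding start was 19707 bp for increased and 11233 bp for decreased regions, compared with 25062 and 17115 bp over the lists.

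**Figure D4:**
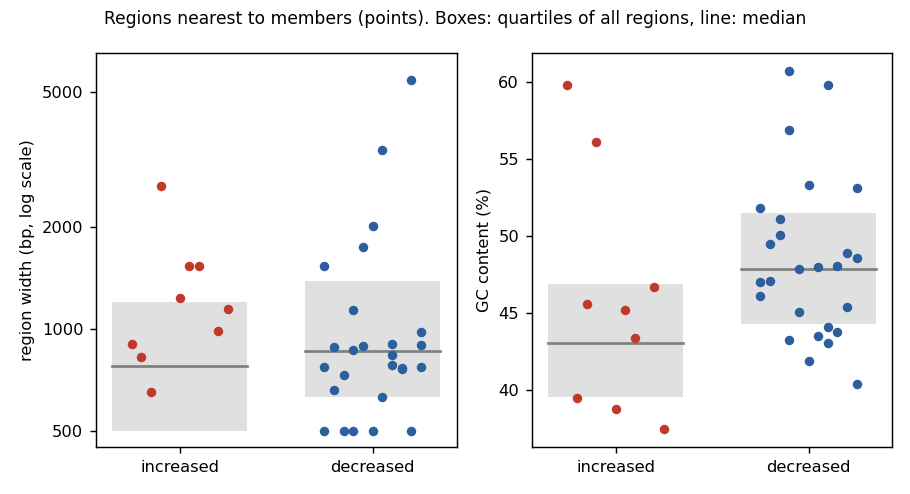
Width in bp on a log scale (left) and GC content in percent (right) of the 9 increased and 26 decreased regions nearest to the genes. Each point is a region, and grey boxes and lines give the quartiles and the median of all regions of that direction. The widest point is the 5409 bp region upstream of Lifr.

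The regions were then searched for binding motifs of the factors that this pathway ends in. The motifs were TTCNNNGAA for STAT factors, GAAA separated by 2 bases from another GAAA for IRF factors, and the NF-kB consensus. AP-1 (TGANTCA), the E-box CAGCTG and the TEAD motif CATTCC were added for comparison. Both strands were read, and matches of different motifs were allowed to overlap. In the central 500 bp, so that the length was the same for each region, a STAT match was present in 10 of 26 decreased regions (38.5%, interval 22.4 to 57.5), at 8 genes, compared with 15% of all decreased regions. Over the whole width, 13 of 26 had one, at 9 genes, compared with 28.2% of all. Among increased regions, 1 of 9 had a central STAT match (11.1%, interval 2.0 to 43.5), compared with 17.0% of all, and over the whole width 3 of 9 did (33.3%, against 29.4% of all). A difference between directions was not tested. Decreased regions held 22 STAT matches over their whole width, among them 4 in the wide region upstream of Lifr and 3 in that downstream of Lif, and increased regions held 4. These totals come from unequal lengths, 29.9 kb of decreased and 11.5 kb of increased regions, and the density over all regions was not counted.

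An E-box was present centrally in 4 of 26 decreased regions (15.4%, interval 6.2 to 33.5) against 37.9% of all, and in 1 of 9 increased regions against 28.8%. Over the whole width the increased regions lay on the other side of the lists, with an E-box in 6 of 9 (66.7%, against 44.1% of all). Decreased regions stayed below the lists (42.3%, against 57.4%). Whole-width shares compare unequal lengths, with median widths of 1147 against 777 bp for increased and 812 against 863.5 bp for decreased regions. NF-kB matches were found centrally in 2 of 9 increased regions (22.2%, against 6.77% of all) and in 3 of 26 decreased regions (11.5%, against 9.60%). IRF matches were found in 2 of 9 (22.2%, against 10.1%) and 2 of 26 (7.69%, against 5.63%). For AP-1 the shares were 22.2% and 15.4%, against 24.3% and 17.9%, and for TEAD 44.4% and 34.6%, against 30.7% and 27.3%. With 12 pairs of motif and direction and no test, these are descriptions of 35 regions, several of which share a gene.

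**Figure D5:**
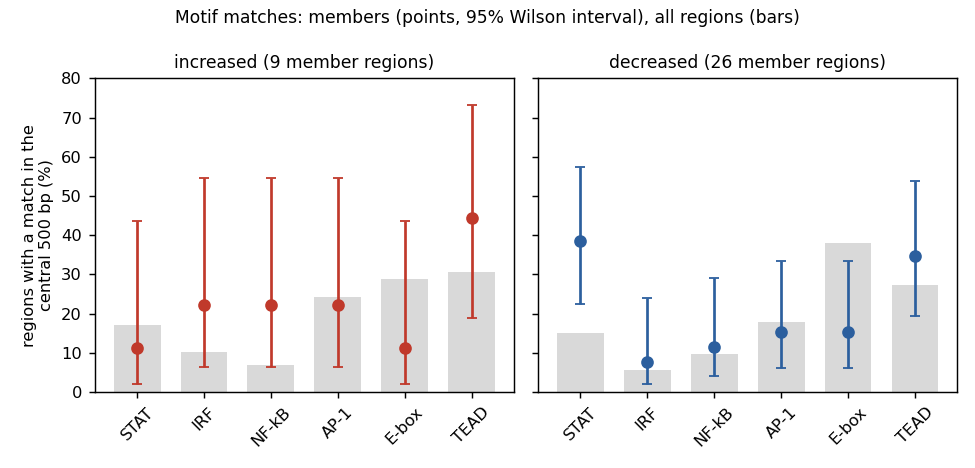
Share of regions with a match to each motif in their central 500 bp, in percent, for increased (left) and decreased (right) regions. Points with 95% Wilson intervals are the regions nearest to the genes, and grey bars are all regions of that direction. In decreased regions, STAT stands at 38.5% above a bar of 15%, and the E-box at 15.4% below a bar of 37.9%.

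A list of 86 other genes of the same pathways was counted in the same way. Decreased regions were nearest to 14 of them (16.3%, against 17.8% of all protein-coding genes) and increased regions to 7 (8.14%, against 10.6% of all), and 66 had neither. Both shares of this separate list, which holds none of the 43 genes, thus lay below those of all genes. It was also drawn up with earlier results of these data known. Their 39 regions comprised 9 increased and 30 decreased ones (23.1% increased). The median number of nearest regions per gene was 0 in each direction for this list, as it was for the 43 genes. Those with 3 or more regions were Cxcl12 (6 decreased), Il34 (5 decreased), Il12a (3 decreased), Ghr (1 increased and 4 decreased) and Ifng (3 increased). Cxcl12 encodes the ligand of CXCR4 and had a region of 2094 bp inside the gene, 7375 bp from a start (chr6:117174906-117176999). Il34, which encodes a ligand of the CSF-1 receptor, had regions of 1239 and 2606 bp centred 1489 and 4013 bp upstream of a start. The growth hormone receptor gene Ghr had its increased region 176909 bp upstream. The 3 regions of Ifng, 40834 bp and farther from its start, lay on chromosome 10. Tyk2, Nfkb2 and Cx3cl1 each had 1 decreased region, and Il21r and Ctf1, both on chromosome 7, each had 1 increased region.

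Markers of other cells that such cultures can hold were counted beside these genes. None of 8 macrophage markers was nearest to a region of either direction. Of 8 fibroblast markers, 3 had increased and 2 decreased regions, and of 6 endothelial markers 1 had an increased and 2 had decreased regions. Of 12 myotube markers, Mef2c (5 regions), Mylpf and Myh3 had increased regions and Actn2 had 4 decreased ones. Of all protein-coding genes, 10.6% were nearest to an increased region, 17.8% to a decreased one and 25.4% to either. The marker lists are short, and their counts were not tested against these shares. Many cytokine genes are also expressed by fibroblasts and endothelial cells, and the part of a different mix of cells in the regions above was not tested.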

How the data were processed

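CUT&RUN libraries of H3K27ac and IgG were made from Nrip1-/- and WT control myotubes (8 libraries, 4 groups of 2). Per the labels and methods, the authors aligned reads to mm10 with BWA-MEM2 2.2.1, called broad peaks with HOMER 4.11 and kept regions that differed by 2-fold or more. How replicates and IgG entered is not given in the sources used here. The labels and the methods name different suppliers for the H3K27ac antibody. The deposited lists hold positions (half-open, printed here counted from 1) and a score that is 1 in every region and was not used. The depth is unknown, so precision is that of counts of regions.

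Of the deposited regions, 11179 were on assembled chromosomes and inside the bounds of GRCm38.p6, and 1 was not placed and was not used. Each region was assigned to the protein-coding gene of GENCODE M21 with the transcript start nearest to its centre. All 43 symbols matched 1 gene. GC content and motifs were read from GRCm38.p6 with pysam 0.24.0 under Python 3.11.15, and Wilson intervals were computed with scipy 1.17.1. Assignment was tested on simulated positions. Members, lists and rules were chosen with earlier results of these data known. Every gene of the list is accounted for, those with a nearest region by position, and other pathway genes are named with 3 or more regions. Examples with fewer were chosen after their values were seen. A result at a neighbouring gene is not reported here.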

Additional observations from a re-analysis of the deposited data

How the results depend on the processing

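Of 64 alternative values for 15 results, 46 stayed within 1.5 times the count or within the interval of the value (for medians, a binomial interval by order). Removing regions narrower than 1 kb left 5 increased and 6 decreased regions nearest to the genes (45.5% increased), with 5 genes nearest to decreased regions, and in the windows 7 increased and 17 decreased regions at 9 and 12 genes. The share was 25.7% with all widths, and this setting keeps fewer regions by construction. With all annotated genes as candidates, 4 increased and 17 decreased regions were nearest to the genes. Without chromosomes 4, 7, 10 and 16, there were 4 increased and 17 decreased regions, 8 genes nearest to decreased regions, and 9 increased regions in the windows. Windows of 50 kb held 7 increased regions at 6 genes, and windows of 200 kb held 38 increased and 81 decreased regions. Using the 5' end of the gene, a limit of 100 kb or joining within 10 kb moved no value outside these bounds, nor did a promoter distance of 2.5 kb. No paired analysis was possible because the lists carry no value per replicate, and for the same reason no replicate could be left out.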
